A study of Mus musculus with 4 samples.

Results

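Regions of open chromatin in which both Gel libraries had a called peak and neither CuNZ@Gel library had one were described in the mouse macrophage-like line RAW264.7. The peak lists of 4 ATAC-seq libraries were merged wherever peaks lay at most 1 base apart, which gave 80929 regions. Of these, 8940 regions, 11.0% of all, held a peak from each of the Gel libraries and none from CuNZ@Gel, and are called Gel-only regions here. The peak calls that chose them come from the same contrast as the read values, so their read values, and the calls made on them, are given as a description and support nothing further.

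The study measured cells with the CuNZ@Gel label (2 libraries) and cells with the Gel label (2 libraries), all collected 48 h after treatment. Per the series title, the material is a sprayable nanozyme hydrogel studied for wound repair. The treatment text is the same for every sample and names only CuNZ@Gel, so the groups rest on the sample titles, and what the Gel cells received is not given. The labels do not say whether libraries of a group came from separate cultures, so the spread between them may be technical. RAW264.7 is a single immortalised line, and no primary macrophages are in this series.

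In ATAC-seq a transposase cuts and tags DNA that is not wrapped in nucleosomes, so reads pile up at promoters, enhancers and other open sites. A peak caller then marks stretches with more reads than the local background. Whether a stretch passes depends on its own signal and also on how deeply the library was read and how high its background was. Macrophages keep open enhancers at lineage genes and open further ones at cytokine and stress genes when stimulated.

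The CuNZ@Gel libraries had fewer reads in regions than the Gel libraries. Reads in regions numbered 7440949 and 10236694 in CuNZ@Gel replicates 1 and 2, against 18843542 and 17914839 in Gel replicates 1 and 2. The authors listed 42612 and 53273 peaks for CuNZ@Gel, against 61757 and 59251 for Gel. Reads in regions per unit of genome background, taken from the deposited peak folds, were 6.37 and 8.53 in units of 1000000 reads in CuNZ@Gel, against 18.8 and 18.6 in the same units in Gel. The background itself, as the genome pileup that the folds imply, was 1.168 and 1.201 in CuNZ@Gel replicates 1 and 2. It was 1.003 and 0.962 in Gel replicates 1 and 2, and is less sure in CuNZ@Gel. Background was thus not lower in CuNZ@Gel, while reads in regions were. Both differ with group and cannot be told apart from it with these libraries. Their part in the peak calls was not tested. The labelled cell type was checked against marker genes. A region with a peak in all 4 libraries was found at 21 of 25 macrophage identity genes, against 11 of 15 granulocyte and dendritic, 8 of 14 endothelial, 8 of 15 lymphocyte, 6 of 16 neuronal, 5 of 14 fibroblast and 2 of 12 epithelial marker genes. Signal was summed over all regions of each marker list, in reads per 1000000 (RPM). Fibroblast markers had 145 and 140 RPM in CuNZ@Gel and 112 and 112 RPM in Gel. Macrophage identity genes had 2315 and 2360 RPM in CuNZ@Gel and 2956 and 3010 RPM in Gel. Endothelial, lymphocyte, neuronal and epithelial markers also summed higher in CuNZ@Gel. Granulocyte and dendritic markers overlapped, with 380 and 364 RPM in CuNZ@Gel and 365 and 373 RPM in Gel. Over all tested regions the median log2 change, CuNZ@Gel minus Gel, fell with signal level. It was 0.35 in the lowest decile of level and −0.60 in the highest. The part of this shift between marker lists in the results below was not tested.

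Gel-only regions were not empty in the CuNZ@Gel libraries. A Gel-only region held a median of 24 and 30 reads in CuNZ@Gel replicates 1 and 2, against 55 and 52 reads in the Gel libraries. After the authors' scaling these medians came to 2.91 and 2.67 RPM in CuNZ@Gel and 3.21 and 3.22 RPM in Gel. All Gel-only regions together took 3.24% and 2.94% of each CuNZ@Gel library's region reads, and 3.20% and 3.21% of each Gel library's. No Gel-only region had 0 reads in both CuNZ@Gel libraries, and 1 had 0 reads in one of them.

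The peaks that defined the Gel-only regions were weaker and narrower than those of regions with a peak in all 4 libraries. Fold enrichment and −log10 q are the authors' own values, here used to describe and rank peaks. The smaller of the Gel folds had a median of 5.54 in Gel-only regions, against 9.75 in the 32082 regions with a peak in all 4 libraries. The smaller −log10 q had a median of 7.05 in Gel-only regions and 34.3 in regions with a peak in all 4. Median region width was 437 bases (range 169 to 1904) for Gel-only regions and 831 bases for regions with a peak in all 4, a merged width to which 4 lists contribute. Regions with a peak in 1 Gel library and none in CuNZ@Gel were narrower still, at 250 bases, and CuNZ@Gel-only regions had 368 bases. In the Gel lists alone, the peaks themselves had median widths of 330 and 319 bases in Gel-only regions, against 693 and 697 bases in regions with a peak in all 4. Gel summits of the 2 replicates lay a median of 31 bases apart in Gel-only regions and 26 bases apart in regions with a peak in all 4.

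Among the 50076 regions with a peak in both Gel libraries, the share that was Gel-only was lower at each step of Gel peak strength. It was 63.6% where the smaller −log10 q was under 3, 52.1% between 3 and 5, and 36.4% between 5 and 10. It was 19.6% between 10 and 20, 5.09% between 20 and 40, and 0.146% (21 regions) at 40 and above. The plot of peak strength shows these shares beside those of regions with a peak in 1 or both CuNZ@Gel libraries.

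**Figure D1:**
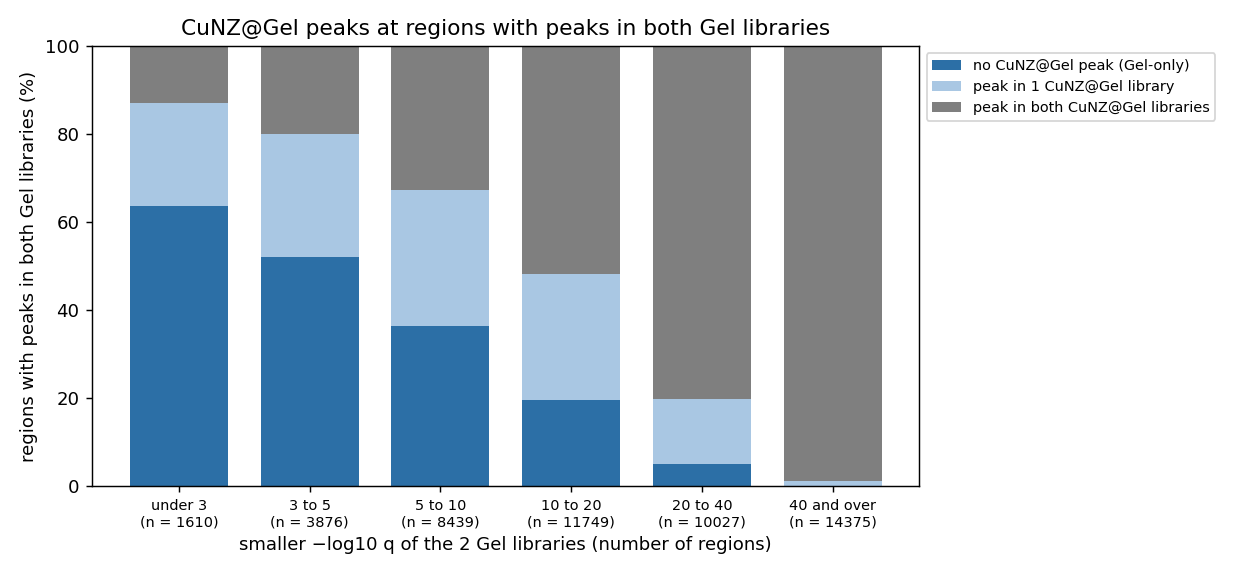
Share (%, y axis) of regions with a peak in both Gel libraries that had no CuNZ@Gel peak, a peak in 1 or a peak in both CuNZ@Gel libraries, by the smaller −log10 q of the Gel peaks (x axis, with the number of regions). The Gel-only share is 63.6% in the weakest class and 0.146% in the strongest.

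The regions just inside the rule were weak in all libraries. Near Slfnl1, −log10 q was 1.31 and 1.39 in the Gel libraries, with 1.82 and 1.69 RPM in CuNZ@Gel and 0.699 and 1.18 RPM in Gel. Near Asb11 on the X chromosome the Gel peaks reached 1.31 and 1.39, with 1.82 and 1.78 RPM in CuNZ@Gel and 0.933 and 0.928 RPM in Gel. In both, the CuNZ@Gel libraries held the higher RPM although only the Gel libraries had a called peak; with background scaling their changes were −0.070 and −0.058. The region near 4933432G23Rik, a noncoding RNA gene also just inside, had 3.15 and 2.04 RPM in CuNZ@Gel and 1.63 and 2.04 RPM in Gel. Just outside the rule, a region near Mgat4a had a CuNZ@Gel peak with −log10 q of 1.31, at 2.42 and 2.67 RPM in CuNZ@Gel and 2.51 and 3.34 RPM in Gel. The regions near Zhx3 and Or5a3, with CuNZ@Gel peaks at 1.32 in 1 library each, were the next outside. All 3 of these outside regions overlapped between the groups.

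Changes are given as CuNZ@Gel minus Gel in log2(RPM + 1), a scale that understates changes of low values. Over Gel-only regions the median change was −0.20, with 5% of them below −0.88 and 5% above 0.39. Of the 8940 Gel-only regions, 6355 lay below 0, 2581 above 0 and 4 at 0. Both CuNZ@Gel values were below both Gel values in 3862 Gel-only regions (43.2%, against 33.1% of all regions), and above both in 973 (10.9%, against 34.5% of all regions). The remaining 4105 Gel-only regions overlapped between the groups. The median change was −0.22 in regions with a peak in all 4 libraries, and −0.004 over all tested regions. The plot of change by class shows these under the deposited scaling. With the trend of change with signal level removed, the Gel-only median was −0.39 and the median of regions with a peak in all 4 was 0.0006. With scaling to the genome background these medians were −0.97 for Gel-only regions and −1.20 for regions with a peak in all 4. At a smaller −log10 q of 5 to 10, the deposited scaling gave −0.19 for Gel-only regions and 0.54 for regions with a peak in all 4. At a given Gel strength these classes differ by the CuNZ@Gel peak calls themselves. The class rule thus favours this direction, and nothing is read from it.

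**Figure D2:**
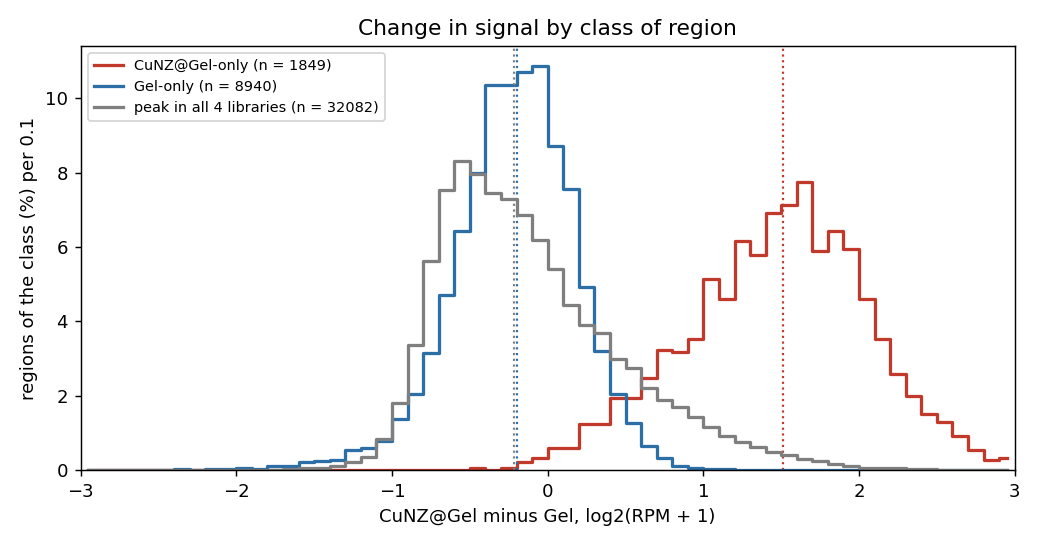
Distribution of the change between groups (x axis, CuNZ@Gel minus Gel in log2(RPM + 1), values beyond the axis placed in the end bins) for CuNZ@Gel-only, Gel-only and all-4 regions, as percent of each class per 0.1 (y axis), with dotted lines at the class medians. The Gel-only median is −0.20, the all-4 median −0.22 and the CuNZ@Gel-only median 1.51.

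The 1849 regions with peaks only in CuNZ@Gel stood far from 0 on the same scale, with a median change of 1.51 and 99.3% of them above 0. Both classes were chosen from peak calls, and no test was made between them. In the CuNZ@Gel-only regions the median was 6.67 and 6.40 RPM in CuNZ@Gel and 1.46 and 1.48 RPM in Gel. The Gel-only regions showed no such separation under the deposited scaling. Their medians were 2.91 and 2.67 RPM in CuNZ@Gel and 3.21 and 3.22 RPM in Gel. With scaling to the genome background, the median change was 0.76 in CuNZ@Gel-only regions and −0.97 in Gel-only regions. CuNZ@Gel mean RPM was at most 0.5 times the Gel mean in 702 Gel-only regions (7.85%, against 2.81% of all regions) and at least 2 times the Gel mean in 47 (0.526%, against 19.2% of all regions).

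The fit over all 77014 regions that passed the filter on low values included 8937 of the Gel-only regions. With limma and Benjamini-Hochberg adjustment over all of them at a threshold of 0.05, 1417 Gel-only regions (15.9%) were called lower in CuNZ@Gel, beside 21.9% of all tested regions. Called higher were 101 Gel-only regions (1.13%), beside 21.2% of all tested regions. These counts use the contrast that chose the regions, and nothing is read from them or from those under other scalings. Leaving out 1 library gave 703 (without Gel replicate 1), 624 (without Gel replicate 2), 1448 (without CuNZ@Gel replicate 1) and 1262 (without CuNZ@Gel replicate 2) called lower, and 26, 27, 51 and 159 called higher in the same order. Over all regions these fits called 12098 to 16608 lower and 11530 to 14953 higher. With the trend of change with signal level removed, 2305 Gel-only regions were called lower (25.8%, beside 13.8% of all) and 21 higher (0.235%, beside 18.8% of all). With scaling to the genome background, 7248 were called lower (81.1%, beside 60.6% of all) and 1 higher (0.0112%, beside 4.85% of all). That last scaling moves the median of all tested regions to −0.82, and the Gel-only median lay 0.15 below it. Under the deposited scaling the Gel-only median lay 0.19 below the median of all tested regions. With plain library totals 641 Gel-only regions were called lower and 383 higher. The count over all regions called lower with that scaling is given in the last section. That called higher is not given, so the 383 has no share beside it. The direction of most Gel-only regions depended on the scaling: of the 8937 tested, 7777 lay below 0 with the trend removed, 8905 with background scaling and 4324 with plain library totals, which move the median of all tested regions to 0.22.

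Within the Gel-only regions the change went with peak strength. The median change was 0.05 where the smaller −log10 q was under 3, −0.05 between 3 and 5, −0.19 between 5 and 10, −0.36 between 10 and 20, −0.56 between 20 and 40, and −0.74 at 40 and above. In the 531 Gel-only regions with a smaller −log10 q of at least 20, the median change was −0.56 and 19 lay above 0. Peak strength in Gel is part of the same contrast, so this order is also a description. The same order was seen in the other classes with a peak in both Gel libraries: over the same steps the median ran downwards, 1.10 to −0.53, in regions with a peak in all 4, and 0.45 to −0.62 in those with 1 CuNZ@Gel peak. Across Gel-only regions, log2 values correlated at Pearson's r = 0.756 for the pair of CuNZ@Gel libraries, 0.910 for the pair of Gel libraries and 0.683 to 0.733 across groups. These correlations are over 8940 regions of 4 libraries and share each library's depth.

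The strongest Gel-only peaks by −log10 q included one near Gm30785, a noncoding RNA gene that lies between Irf1 and Slc22a5 in the RefSeq gene order. It was chosen after its values were seen. This region (GRCm39 chromosome 11, bases 53696425 to 53697195) had −log10 q of 95.2 and 90.5 in the Gel libraries. Its signal was 8.13 and 5.77 RPM in CuNZ@Gel and 47.0 and 44.0 RPM in Gel, a change of −2.56. Irf1 encodes an interferon-regulated transcription factor, and Slc22a5 a carnitine transporter. A second Gel-only region, annotated to Irf1 itself, had 3.88 and 3.29 RPM in CuNZ@Gel and 3.27 and 4.46 RPM in Gel, so its groups overlapped. Among other strong peaks, chosen the same way, the region near Ptrh2, which encodes a mitochondrial peptidyl-tRNA hydrolase, had 7.16 and 5.69 RPM in CuNZ@Gel and 23.0 and 27.2 RPM in Gel. The region near Kdm6b, which encodes a demethylase of histone H3 lysine 27, had 7.16 and 5.42 RPM in CuNZ@Gel and 12.4 and 10.9 RPM in Gel. Near Ifi202b, an interferon-inducible gene, values were 8.0005 and 6.57 RPM in CuNZ@Gel and 12.7 and 12.9 RPM in Gel. In the regions near Gm30785, Ptrh2, Kdm6b and Ifi202b the groups did not overlap and CuNZ@Gel was the lower one.

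By fold enrichment, the 8 leading Gel-only regions with a gene symbol lay near Grp, Rps12-ps16, Mir6415, Csf2, Adcy7, Rph3a, Arid3b and Poc1a, with smaller Gel folds of 15.9 to 19.3. Csf2 encodes GM-CSF, a growth factor of myeloid cells. Its region (chromosome 11, bases 54147775 to 54148302) had 5.94 and 5.06 RPM in CuNZ@Gel and 8.05 and 10.3 RPM in Gel, a change of −0.64. Adcy7 encodes an adenylate cyclase, the enzyme that makes cyclic AMP, and its region had 4.49 and 5.15 RPM in CuNZ@Gel and 6.82 and 7.18 RPM in Gel. The region near Rph3a, the gene of the vesicle protein rabphilin, had the largest change of the 8, −1.34, with 5.58 and 6.57 RPM in CuNZ@Gel and 17.3 and 16.4 RPM in Gel. Near Grp, which encodes gastrin-releasing peptide, the CuNZ@Gel libraries differed from each other, with 2.42 and 7.64 RPM, against 8.86 and 7.06 RPM in Gel. The Grp region was the one of these 8 whose groups overlapped.

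The largest negative changes among Gel-only regions at or above the class's median level, counting regions with a gene symbol, were near Tcea1, Irf2bp2, Arhgap1, Prmt3, Sqle, Or4d2b, Btf3 and N4bp2l1, and ran from −2.89 to −1.96. Tcea1 encodes a transcription elongation factor. Its region (chromosome 1, bases 4923752 to 4924016) held 0.242 and 0.800 RPM in CuNZ@Gel, which are 2 and 9 reads, and 10.9 and 9.35 RPM in Gel, which are 186 and 151 reads. The Gel folds of the Tcea1 region were only 3.49 and 3.40. The region near Irf2bp2, a transcriptional corepressor gene, had 0.242 and 2.04 RPM in CuNZ@Gel and 10.6 and 9.16 RPM in Gel.

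The region near Arhgap1 lies at chromosome 2, bases 91495039 to 91495633. It had 2.42 and 2.31 RPM in CuNZ@Gel and 16.2 and 15.1 RPM in Gel, a change of −2.30. Near Prmt3, a protein arginine methyltransferase gene, values were 1.94 and 1.33 RPM in CuNZ@Gel and 11.9 and 11.9 RPM in Gel. Near Sqle, which encodes squalene epoxidase of cholesterol synthesis, the region (chromosome 15, bases 59209925 to 59211006) had 3.52 and 3.82 RPM in CuNZ@Gel and 17.96 and 20.5 RPM in Gel. In all 8 regions both CuNZ@Gel values lay below both Gel values.

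**Figure D3:**
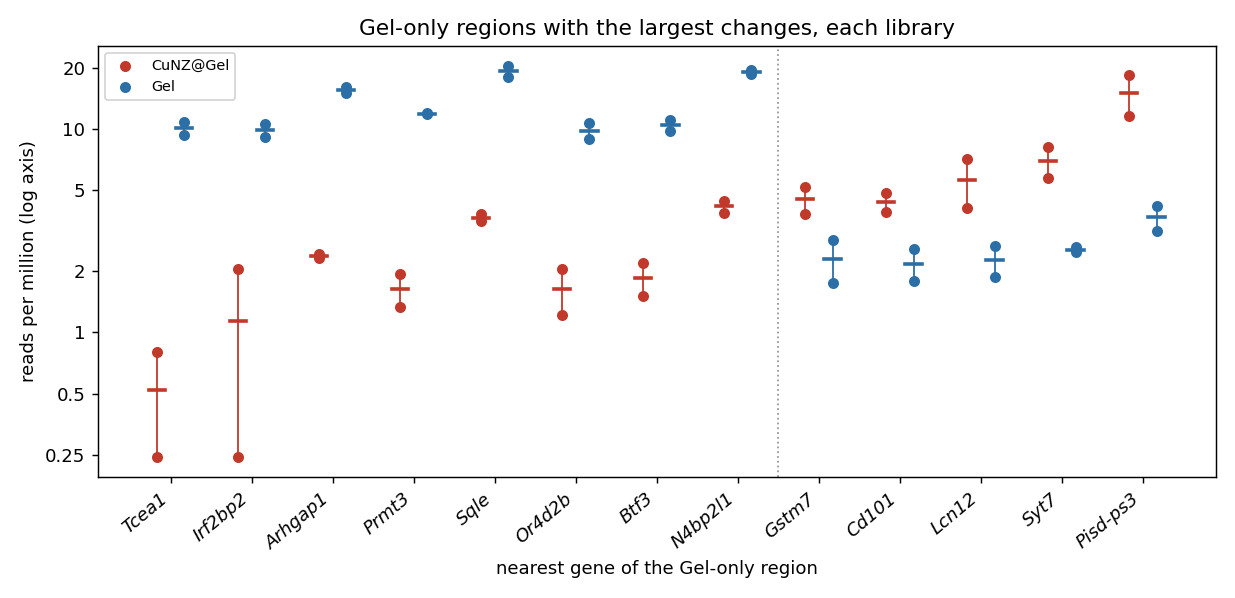
Signal (RPM, log axis) of the Gel-only regions with the 8 largest negative changes and the 5 largest positive changes among those with a gene symbol at or above the class's median level, CuNZ@Gel left and Gel right for each, points for libraries, bars for group means (n = 2). Left of the dotted line CuNZ@Gel lies below Gel, right of it above.

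Under the deposited scaling 2581 of 8940 Gel-only regions (28.9%, against 51.4% of all regions) had a change above 0 although no CuNZ@Gel peak was listed there. With background scaling 32 of the 8937 tested lay above 0. The largest positive changes by the same rule were near Pisd-ps3, Syt7, Lcn12, Cd101 and Gstm7, from 1.75 to 0.75. The Pisd-ps3 region, next to a pseudogene on an unplaced scaffold, had 18.4 and 11.6 RPM in CuNZ@Gel and 4.198 and 3.16 RPM in Gel. Syt7 encodes a synaptotagmin of lysosome exocytosis, and its region had 8.13 and 5.77 RPM in CuNZ@Gel and 2.63 and 2.47 RPM in Gel. The region near Cd101, a surface glycoprotein gene of myeloid and T cells, had 4.85 and 3.91 RPM in CuNZ@Gel and 2.57 and 1.795 RPM in Gel. With scaling to the genome background the sign turned for Cd101 (−0.033) and Gstm7 (−0.052). A region near Ereg, the gene of the growth factor epiregulin, was below the level limit and chosen after its values were seen. It had 5.33 and 3.91 RPM in CuNZ@Gel and 2.39 and 0.742 RPM in Gel.

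The widest Gel-only regions were near Col27a1 (1904 bases), Selenof (1757 bases) and Ipo5 (1592 bases). The region near Col27a1, a fibrillar collagen gene, had 12.3 and 13.7 RPM in CuNZ@Gel and 18.5 and 22.3 RPM in Gel, without overlap. The region near Ipo5, an importin gene, had 4.73 and 5.86 RPM in CuNZ@Gel and 4.84 and 5.08 RPM in Gel, where the groups overlapped.

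Gel-only regions were spread over the genome about as all regions were. Their share of a chromosome's regions ran from 10.1% on chromosome 18 to 12.3% on chromosome 15 among the autosomes, and was 11.5% on the X chromosome. The median change of Gel-only regions on X was −0.36, and that of all regions on X was −0.22. Chromosome Y held 3 of 8 regions and the unplaced scaffolds 2 of 48. Of 2391 windows of 1000000 bases with any region, 1872 had a Gel-only region. A window at 12000001 to 13000000 on chromosome 15 had 19 Gel-only regions among 61, of which 9 were annotated to Pdzd2. Another on chromosome 15, at 73000001 to 74000000, also had 19, among 89, including 6 at Ptp4a3 and 5 at Dennd3.

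Along the chromosomes Gel-only regions lay next to each other little more often than their share of all regions. Of the neighbours of Gel-only regions 11.9% were Gel-only, against 11.0% over all regions, and 22.4% of Gel-only regions had at least 1 such neighbour. Single Gel-only regions numbered 6941, and there were 824 pairs, 94 runs of 3, 16 runs of 4 and 1 run of 5. The run of 5 spanned 867162 bases of the X chromosome (161724227 to 162591388) at S100g, Gm15212, Grpr and Rnf138rt1, with changes from −0.45 to −0.04. Grpr encodes the gastrin-releasing peptide receptor. A region near its ligand gene Grp had the highest smaller fold of all named regions, but a link between these genes was not tested. A run of 4 over 14619 bases at Col16a1, a collagen gene, and Gm12963 had changes of 0.10 to 0.25. A run of 4 at Ptp4a3 (16027 bases on chromosome 15) had changes from −0.39 to 0.00. The median distance of a Gel-only region to the nearest region with a peak in all 4 libraries was 14122 bases. It was 9127 bases between regions with a peak in all 4, and 12022 bases over all regions. Regions with both Gel peaks and 1 CuNZ@Gel peak had 12069 bases, and those with a peak in 1 Gel library only had 16160 bases.

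By the authors' nearest-gene annotation, Gel-only regions touched 7085 of 26614 genes, or 26.6%. Of these genes 5652 had 1 Gel-only region, 1125 had 2, 229 had 3, 58 had 4 and 21 had 5 or more. For 66.8% of Gel-only regions, the same gene also had a region with a peak in all 4 libraries. For 934 genes every region was Gel-only, and 85 of these genes had 2 or more regions. Protein-coding genes took 61.0% of Gel-only regions (63.0% of all regions), long noncoding RNA genes 27.4% (26.2% of all) and microRNA genes 1.91% (1.62% of all).

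Foxn3 and Pdzd2 had the most Gel-only regions, 9 each. Foxn3 encodes a forkhead transcription repressor, and 9 of its 17 regions, spread from base 99347062 to 99517322 of chromosome 12, were Gel-only. Their changes ran from −0.51 to 0.20, with 5 below 0 and 2 without overlap. The strongest of them, with Gel folds of 14.2 and 10.7, had 6.19 and 3.73 RPM in CuNZ@Gel and 6.71 and 6.25 RPM in Gel. The Pdzd2 gene encodes a protein with PDZ domains, and 9 of its 21 regions were Gel-only, with changes from −0.98 to 0.31. Summed over its 9 Gel-only regions, Pdzd2 had 23.4 and 22.8 RPM in CuNZ@Gel and 33.0 and 32.2 RPM in Gel, while Foxn3 had 27.9 and 20.4 RPM in CuNZ@Gel and 27.2 and 26.9 RPM in Gel. The summed values did not overlap for Pdzd2 and did for Foxn3.

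Next came Apbb2, Mb21d2, Osbp2, Pde4d, Ptp4a3 and Tbl1xr1 with 6 each. Pde4d, a cyclic AMP phosphodiesterase gene, had 48 regions in all, of which 19 had a peak in all 4 libraries and 3 were CuNZ@Gel-only. Tbl1xr1 encodes a subunit of nuclear receptor corepressor complexes, and its Gel-only regions summed to 18.7 and 15.02 RPM in CuNZ@Gel and 25.6 and 27.8 RPM in Gel. Several genes tied at 5, of which Cdkal1 and Dennd3, the first by name, are in the plot of genes. Among symbol-named genes (no Gm number or RIKEN clone name) with at least 8 regions, the Gel-only share was highest at Sla2 (5 of 9), Foxn3 and then Cd101, Clstn1, Ddit4, Nos2 and Ppp1r16b with 4 of 8. Sla2 encodes an adaptor that dampens antigen receptor signalling, and its Gel-only regions summed to 20.6 and 18.04 RPM in CuNZ@Gel and 22.2 and 24.6 RPM in Gel.

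**Figure D4:**
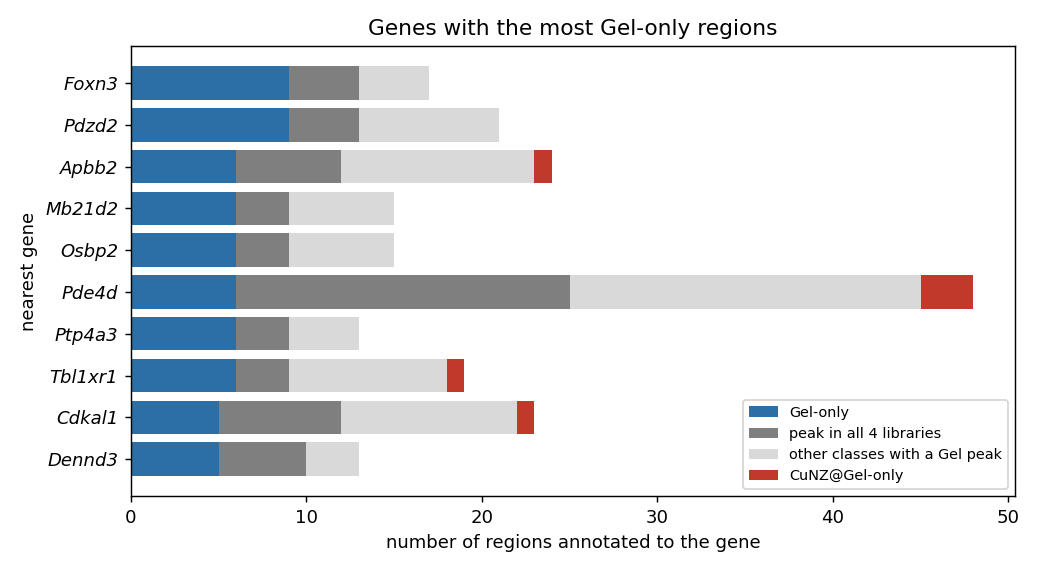
Number of regions (x axis) annotated to each of 10 symbol-named genes with the most Gel-only regions (ties at 5 taken by name), split into Gel-only, all-4, other classes with a Gel peak, and CuNZ@Gel-only. Foxn3 and Pdzd2 have 9 Gel-only regions each, of 17 and 21.

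Lists of macrophage, inflammatory, stress and matrix genes were then read against the overall Gel-only share of 11.0% of regions. No list was tested for enrichment, and the share of a list rests on few regions. Counts below 0 in a list stand beside 6355 of 8940 over all Gel-only regions. With library totals they stand beside 4324 of 8937 tested. Of 97 regions at inflammatory cytokine and chemokine genes, 15 (15.5%) were Gel-only, at 11 genes. Their median change was −0.25, with 10 below 0 (8 with library totals and 15 with background scaling). Nos2, the inducible nitric oxide synthase, had 4, and its strongest (fold 10.5 and 12.7) had 3.52 and 2.84 RPM in CuNZ@Gel and 3.91 and 4.08 RPM in Gel. Summed over these 4, Nos2 had 20.01 and 19.1 RPM in CuNZ@Gel and 24.0 and 21.2 RPM in Gel.

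Il12b encodes a subunit of IL-12 and IL-23. The larger change of its 2 Gel-only regions was −0.83, with 2.18 and 2.58 RPM in CuNZ@Gel and 4.66 and 5.39 RPM in Gel. A region near Il6, the gene of the cytokine interleukin 6, had 0.970 and 1.42 RPM in CuNZ@Gel and 2.45 and 1.98 RPM in Gel. The region near Ccl22, a chemokine gene, was higher in CuNZ@Gel under the deposited scaling (−0.33 with background scaling), with 3.88 and 2.22 RPM in CuNZ@Gel and 1.81 and 2.10 RPM in Gel. All 3 of these regions were free of overlap between the groups.

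At macrophage identity genes 14 of 145 regions (9.66%) were Gel-only. All 14 had changes below 0 (10 with plain library totals), beside 6355 of the 8940 Gel-only regions. Of these 14, 11 were lower without overlap, beside 43.2% of Gel-only regions and 33.1% of all regions. All 5 Gel-only regions of neuronal markers lay below 0 as well. The median change of these 14 regions was −0.37, beside −0.20 over all Gel-only regions. Runx1, a lineage transcription factor gene, had the largest, −1.12, with 3.15 and 3.02 RPM in CuNZ@Gel and 8.75 and 7.12 RPM in Gel. A region near Cd14, the lipopolysaccharide co-receptor gene, had 8.25 and 11.8 RPM in CuNZ@Gel and 19.5 and 23.0 RPM in Gel. Spi1, which encodes the master macrophage factor PU.1, had a region with 7.28 and 7.29 RPM in CuNZ@Gel and 10.2 and 10.2 RPM in Gel. Mitf, with 3 Gel-only regions, had smaller changes of −0.18 to −0.43, and Lyz2, the lysozyme gene, had −0.02 with overlapping groups.

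Receptors of microbial patterns and inflammasome genes had 19 Gel-only regions of 162 (11.7%), of which 17 lay below 0 (8 of 18 tested with library totals). Nod1 and Tlr5, which sense peptidoglycan and flagellin, had 3 each. Sting1, the adaptor of cytosolic DNA sensing, had 9.94 and 9.06 RPM in CuNZ@Gel and 15.3 and 12.7 RPM in Gel. NF-kB pathway genes had 10 of 124 (8.06%), 6 below 0 (10 with background scaling), with changes from −0.85 to 0.37. The −0.85 was the larger change at Nfkbiz, an inducible nuclear IkB protein gene. Its region had 1.46 and 1.42 RPM in CuNZ@Gel and 3.38 and 3.40 RPM in Gel. Interferon response genes had 6 of 90 (6.67%), 2 of them near Ifnb1, the interferon beta gene, with changes of −0.45 and −0.44. One of these Ifnb1 regions had 3.64 and 4.36 RPM in CuNZ@Gel and 5.72 and 5.82 RPM in Gel.

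Oxidative stress and NRF2 genes had 13 Gel-only regions of 127 (10.2%). In 12 of these the change was below 0 (11 with library totals), and 11 were lower without overlap, beside 43.2% of Gel-only regions and 33.1% of all regions. Bach2, a repressor that binds the same kind of sites as NRF2, had 4, and Gclc, the catalytic subunit of glutathione synthesis's first enzyme, had 3. A region near Cybb, the gene of the NADPH oxidase subunit gp91phox, had 3.88 and 2.67 RPM in CuNZ@Gel and 7.06 and 8.54 RPM in Gel, a change of −1.05. The region near Nfe2l2, which encodes NRF2, had 6.43 and 6.48 RPM in CuNZ@Gel and 9.04 and 8.73 RPM in Gel. Copper and metal handling genes had 6 of 88 (6.82%). At Atp7b, a copper-transporting ATPase gene, the change was 0.10 (−0.79 with background scaling), the groups overlapped, and the region had 5.22 and 6.40 RPM in CuNZ@Gel and 4.84 and 5.82 RPM in Gel. At Dlat, a subunit of pyruvate dehydrogenase, it was −0.42, with 7.40 and 7.11 RPM in CuNZ@Gel and 10.8 and 9.28 RPM in Gel.

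**Figure D5:**
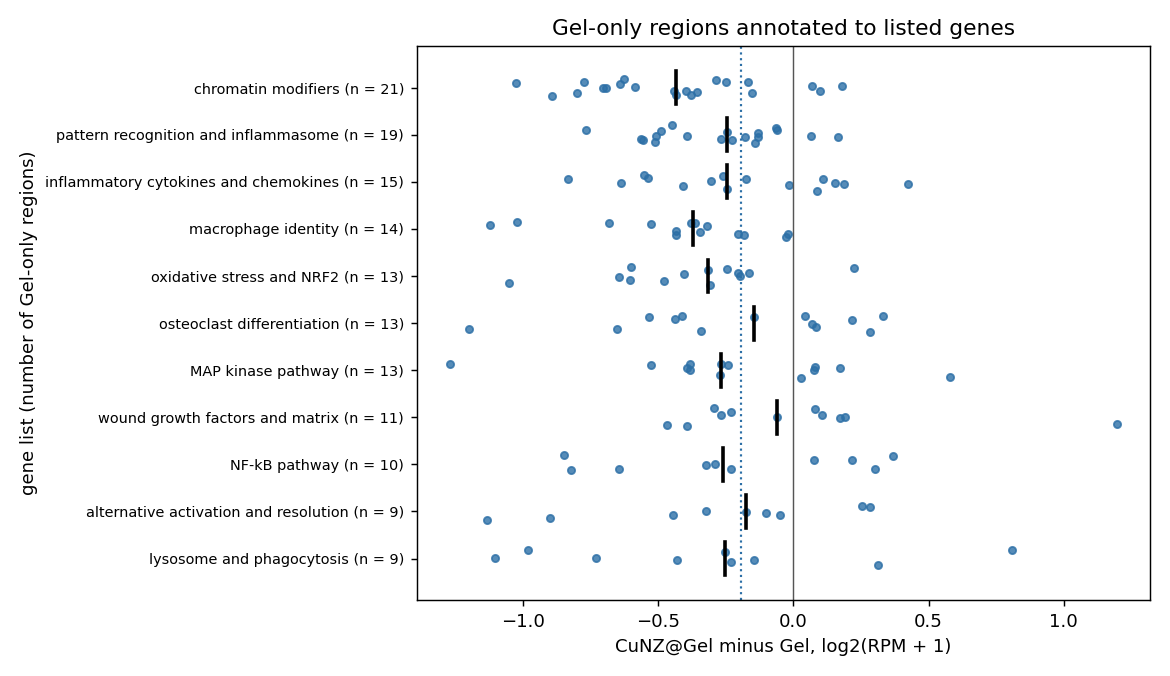
Change of each Gel-only region (points, CuNZ@Gel minus Gel in log2(RPM + 1), x axis) in the gene lists described here with at least 9 of them (y axis), with the list median as a black bar and the median of all Gel-only regions, −0.20, as a dotted line. Vertical spread of points within a list carries no value. All 14 macrophage identity regions lie below 0 (10 with plain library totals), beside 6355 of all 8940 Gel-only regions.

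Chromatin modifier genes had 21 Gel-only regions of 204 (10.3%), 18 below 0 (16 with library totals), with a median change of −0.44, beside −0.20 over all Gel-only regions. Hdac4, a histone deacetylase gene, had a region with 0.607 and 1.33 RPM in CuNZ@Gel and 2.98 and 2.91 RPM in Gel. Osteoclast genes had 13 of 87 (14.9%), 7 below 0 (6 with library totals and 13 with background scaling). Ctsk, the gene of the bone protease cathepsin K, had 1 region on each side of 0, at −0.41 and 0.33 (−0.41 with background scaling for the second). Atp6v0d2, a subunit of the proton pump, had 3, all below 0. The strongest of these 3 had 4.61 and 3.29 RPM in CuNZ@Gel and 12.1 and 8.67 RPM in Gel. Wound growth factor and matrix genes had 11 of 89 (12.4%), 6 below 0 (5 with library totals and 9 with the trend removed). The Ereg region described above is in this list. Tgfb2, a growth factor of repair, had 2 with changes of 0.11 and 0.08 (−0.25 and −0.04 with the trend removed).

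The other lists had fewer Gel-only regions for their size or mixed directions. MAP kinase genes had 13 of 128 (10.2%), 8 below 0 (12 with the trend removed). Alternative activation genes had 9 of 108 (8.33%), among them 3 at Il10, the gene of an anti-inflammatory cytokine, with changes of −0.45 to 0.28. Clec10a, a lectin of alternatively activated macrophages, had the largest change in that list, with 6.19 and 5.95 RPM in CuNZ@Gel and 13.5 and 15.6 RPM in Gel. Lysosome and phagocytosis genes had 9 of 156 (5.77%), 7 below 0 (6 with library totals). Fcgr2b, the gene of the inhibitory Fc receptor, had 2 of these, with changes of 0.81 and −0.23. The first of them had 2.79 and 4.44 RPM in CuNZ@Gel and 1.46 and 1.73 RPM in Gel. The region near Abca1, a cholesterol exporter gene, had 9.46 and 9.33 RPM in CuNZ@Gel and 22.0 and 20.7 RPM in Gel. Signal-induced transcription factors had 5 of 104 (4.81%) with a median change of −0.23, while the list's other regions had −0.60. Cell cycle and p53 genes had 4 of 89 (4.49%) and housekeeping genes 1 of 41 (2.44%), near Sdha. The markers of other cell types had 6 of 46 (endothelial), 5 of 52 (neuronal), 3 of 43 (lymphocyte), 2 of 37 (granulocyte and dendritic), 1 of 28 (fibroblast) and 1 of 13 (epithelial). In the same order, 4, 5, 2, 2, 1 and 1 of these lay below 0.

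Gene families were read from symbol patterns in the same way. Potassium channel genes had the highest share, 43 of 267 regions (16.1%) at 33 genes, with Kcnc1, Kcnh3 and Kcnn3 at 3 each. C-type lectins had 13 of 82 (15.9%), interleukins and their receptors 41 of 272 (15.1%), and phosphodiesterases 25 of 169 (14.8%). Olfactory receptor genes, which are silent in most cells outside the nose, had 25 of 185 (13.5%). Solute carriers had 150 of 1217 (12.3%). At the low end stood Kruppel-like factors with 1 of 40 (2.50%) and small nucleolar RNA genes with 4 of 79 (5.06%). Serine protease inhibitors had 5 of 90 (5.56%) and histone genes 4 of 69 (5.80%). Keratins had 3 of 37 (8.11%) and ribosomal protein genes 17 of 206 (8.25%). Regions with a peak in all 4 libraries made up 39.6% of all regions. Their share was 24.7% of potassium channel, 40.8% of interleukin and receptor, and 43.9% of C-type lectin regions. At the low end it was 52.4% of ribosomal protein, 62.3% of histone, 55.0% of Kruppel-like factor and 51.9% of small nucleolar RNA regions. It was 31.1% of serine protease inhibitor and 29.7% of keratin regions.

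MicroRNA genes are short, and a region annotated to one often lies in a host gene or in a stretch with no other gene. Gel-only regions numbered 178 of 1375 microRNA regions (12.9%), at 150 of 576 microRNA genes. The median change of these 178 was −0.21, with 124 below 0 (88 with library totals), 81 lower without overlap and 16 higher without overlap (43.2% and 10.9% of all Gel-only regions, 33.1% and 34.5% of all regions). By smaller Gel fold the leading genes were Mir6415, Mir7676-2, Mir680-3, Mir187, Mir5127, Mir761, Mir7237 and Mir7680, from 17.01 to 10.4. The mature RNAs of these genes, other than Mir187 and Mir5127, are shown with the seed marked, which can be shared between genes. The seed, bases 2 to 8 in capitals, is the part that pairs with target messages. Sequences are RefSeq's, from the GRCm38.p6 tables, in which 131 of the 150 genes had a mature RNA:
mmu-miR-6415: gAGCUUUUgagggccccaugca
mmu-miR-7676-5p: aGGGCAGUaugauggccucugau
mmu-miR-7676-3p: uCCGGUGCucacucugcccaca
mmu-miR-680: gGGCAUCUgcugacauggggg
mmu-miR-761: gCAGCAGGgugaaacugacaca
mmu-miR-214-3p: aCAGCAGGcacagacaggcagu
mmu-miR-7237-5p: aUGGUAGCuugugacaggacuggc
mmu-miR-7237-3p: cAUCCUGUugagcuuaccgagc
mmu-miR-7680-5p: aUUCCAGUgaacaagcaguu
mmu-miR-146a-5p: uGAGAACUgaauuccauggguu
mmu-miR-21a-5p: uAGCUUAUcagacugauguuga
The RNA miR-214-3p is listed because its gene also had a Gel-only region and its seed is the same as that of miR-761. The RNAs miR-146a-5p and miR-21a-5p were added after their values were seen, since both are known as feedback regulators in stimulated macrophages.

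Among these microRNA genes, Mir6415 had 3.40 and 2.84 RPM in CuNZ@Gel and 4.66 and 4.33 RPM in Gel at its strongest Gel-only region. The Mir680-3 region had 3.88 and 4.53 RPM in CuNZ@Gel and 6.24 and 6.19 RPM in Gel. Neither overlapped between groups, while the Mir761 region did, with 4.37 and 3.91 RPM in CuNZ@Gel and 4.84 and 3.47 RPM in Gel. Mir146, the gene of miR-146a, had 2 Gel-only regions, both lower in CuNZ@Gel without overlap. One of them (chromosome 11, bases 43242739 to 43242948) had 2.18 and 1.95 RPM in CuNZ@Gel and 3.44 and 4.83 RPM in Gel. Mir21a also had 2, and the larger change, −0.93, was at bases 86472183 to 86472494 of chromosome 11, with 7.88 and 11.7 RPM in CuNZ@Gel and 20.2 and 18.4 RPM in Gel. The Ptrh2 region described above lies in the same window of chromosome 11, in which 17 of 93 regions were Gel-only. A region near Mir155hg, the host gene of miR-155, had 10.3 and 8.71 RPM in CuNZ@Gel and 10.0 and 11.1 RPM in Gel, so the groups overlapped there.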

How the data were processed

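Open chromatin was measured by ATAC-seq in 4 libraries. The submitters' processing notes name MACS2 2.2.8, Picard 2.27.5, SAMtools 1.17, Bowtie2 2.3.4.3, fastp 0.23.1 and genome build GRCm39, with no settings. The authors deposited, library by library, log2 values of 80929 regions, with the nearest gene, and a peak list. Per peak, the authors deposited an integer score, a fold over background (a ratio), and significance as −log10 p and −log10 q. The deposited log2 values are log2(RPM + 1): once the logarithm was undone, 100% of values under 20 reads came within 0.1 of a whole read. RPM means reads per 1000000 reads in regions, after multiplying each library's total by a factor (1.11 and 1.10 for CuNZ@Gel, 0.910 and 0.902 for Gel). The background scaling used the genome pileup that the deposited folds imply. This pileup was read from low folds that fall on whole steps. Such folds were 6.85% and 8.87% of low folds in CuNZ@Gel replicates 1 and 2, against 34.7% and 31.3% in Gel. The background values of CuNZ@Gel, and the reads per unit of background, are therefore less sure than those of Gel. Merged peaks follow the value tables row by row, and so gave GRCm39 coordinates, counted from 1.

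The nearest gene says nothing of promoter, exon or intron. A GRCm39 genome was not used here, so the letters of the regions are not shown. RefSeq's GRCm38.p6 tables gave gene classes, gene order and microRNA sequences, and 25127 of 26614 gene names matched them. The chromosome was the same for 77097 of 77099 regions that could be compared. Gene names were missing in 4 rows.

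The fit used limma 3.58.1 in R 4.3.3 with an intensity trend on the log2 values (pseudocount 1 RPM), two-sided, adjusted over 77014 regions. These had at least 10 reads at median depth (0.710 RPM) in 2 or more libraries and 15 or more reads in sum. Among Gel-only regions, 3 failed this filter. The fit was first tested on simulated data, with changes placed only in regions of higher read number and no trend of change with signal level. That run therefore does not speak to changes in regions of few reads. Alternatives covered the merging of peaks, peak thresholds, scaling, pseudocount, filter, limma-voom on the recovered reads, the replicate number as a block, and leaving out each library. At a median of 24 to 55 reads per Gel-only region, counting error is a sizeable part of the spread.

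The members, gene lists, families and naming rules were chosen with earlier results of these data known. Named regions with a gene symbol are the 8 highest smaller Gel folds, and, at or above the class's median level, the 8 largest negative and 5 largest positive changes. Named genes are the 10 with a gene symbol and the most Gel-only regions (ties by name), those with a gene symbol and the highest share among genes with at least 8 regions (7, with ties), and up to 3 per list. The longest runs, the 3 widest regions, regions next to the threshold and 8 microRNA genes complete the rule. One further gene list is not reported here. Listed genes with 1 Gel-only region, such as Runx1, Cd14, Spi1, Il6, Sting1, Nfe2l2 and Lyz2, were chosen after their values were seen where a list had others ahead of them.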

Additional observations from a re-analysis of the deposited data

How the results depend on the processing

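How peaks were merged mattered little: merging only overlapping peaks, or peaks up to 100 bases apart, gave 8943 and 8942 Gel-only regions, and requiring −log10 q of at least 2 gave 9041, with 23.5% next to another. With the same number of top peaks from every list, 4322 Gel-only regions remained, of which 3378 overlapped one of the 8940. Their median width was 484 bases, 16.7% lay next to another, and 0 genes had 5 or more. Direct overlap of peaks gave a median width of 328 bases, since it counts Gel replicate 1 peaks and not merged regions, and no share of neighbours was computed for it. Leaving out a library gave 10648 to 17205 Gel-only regions (10648 without CuNZ@Gel replicate 1, 16326 without CuNZ@Gel replicate 2, 15583 without Gel replicate 1, 17205 without Gel replicate 2), with 27.1% to 45.6% next to another, median widths of 285 to 465 bases and 37 to 182 genes with 5 or more. The rule then asks for fewer lists.

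The median change of Gel-only regions was −0.39 with the trend removed, 0.0135 with library totals, −0.97 with background scaling and −0.27 with limma-voom. With library totals the median of all tested regions was 0.22, and the Gel-only median lay 0.20 below it. Counts of Gel-only regions called lower were 2305 with the trend removed, 641 with library totals and 7248 with background scaling. Counts called higher were 21, 383 and 1 under these, and 44 with the stricter filter, which kept 4793 Gel-only regions. Over all regions, 10612 (trend removed), 9155 (library totals) and 46689 (background) were called lower, and 3738 (background) and 7425 (stricter filter) higher. Leaving out a library gave 624 to 1448 Gel-only regions called lower (703 without Gel replicate 1, 624 without Gel replicate 2) and 26 to 159 called higher, beside 12098 to 16608 lower and 11530 to 14953 higher over all regions, where the lone library is assumed to vary like the other group. Of 341 regions at named or listed genes, 149 had the other sign under at least 1 alternative, 73 of them under background scaling; among those called, background scaling turned Cd101 to −0.033 and Gstm7 to −0.052. The replicate number as a block gave 1476 Gel-only regions called lower and 118 higher, beside 1417 and 101 without the block. Counts over all regions with the block are not set beside these. Same-numbered libraries share only a number (correlation of deviations 0.016, 2 pairs). With 2 libraries a group, no outlier could be assessed.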
